A study of Mus musculus with 67 samples.

Results

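The comparison described here set hearts of the hypertensive inbred strain BPH/2J against hearts of the normotensive strain BPN/3J. Its members were the arrays whose titles gave heart as the tissue and BPH or BPN as the strain, 10 of 67 arrays, 5 of each strain, and every probe set of the array entered the test. All animals were male, were 12 weeks old, were fed standard chow, and no transgene or drug was named. Systolic pressure was 142 ± 5 mmHg in BPH and 94 ± 6 mmHg in BPN per the design text, which does not name the kind of error. Tissue of 5 mice per strain was collected independently, but the arrays were not tied to animals and the chamber of the heart was not stated. P-values therefore measure only how these arrays vary, which may be partly technical. No scan date, plate or other batch was given. Both strains are whole inbred genomes, so a difference belongs to the strain pair, and the share owed to blood pressure cannot be told apart from the rest of the genetic background.

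The pumping of the heart rests on cardiomyocytes, in which calcium entering through surface channels releases more calcium from the sarcoplasmic reticulum and so drives the myosin and actin filaments. The muscle burns mostly fatty acids, with glucose, lactate, ketone bodies and branched-chain amino acids as further fuels. Under pressure load a heart typically raises stretch-responsive and fetal transcripts such as natriuretic peptides, and beta-adrenergic and natriuretic receptors set its contraction through cyclic AMP and cyclic GMP. Fibroblasts, vessel cells and resident macrophages share the tissue, so that in a homogenate fewer cells of a type and less RNA per cell cannot be told apart.

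Levels are log2 intensities of 1 probe set, and differences are BPH minus BPN on the same log2 scale, given ± the standard error of a limma fit over the 15 heart arrays, which also held 5 arrays of the hypotensive strain BPL/1J. A gene with several probe sets was read by the one of highest mean level, and a gene was called, or said to rise or fall, where the limma p adjusted by Benjamini-Hochberg over all 38385 probe sets was under 0.05. Of the 38385 probe sets 2695 were called (7.02%), 1346 higher and 1349 lower in BPH (3.51% each). By 1 probe set a gene, 1621 of 19147 named genes were called (8.47%, 4.33% higher and 4.14% lower), and among the 11089 with a mean level above the median of every heart array the share was 12.7%. Differences were mostly small, as 1240 of the 1621 genes differed by less than 1.5-fold and 139 (0.726% of named genes) by 2-fold or more. Over 55 lists of cardiac pathways, cell types and stress responses, 1210 of 1406 genes had a named probe set and the others were not analysed here. Of those 1210, 210 were called (17.4%), 79 higher and 131 lower. Among the 210, 174 had no overlap between BPH and BPN arrays, which a call itself makes likely. Over all named genes, called or not, 9.69% had none (4.96% with BPH above and 4.73% with BPH below). That share is not a like measure for a set of called genes. Of the 210 calls 142 were kept whichever 1 of the 10 arrays was left out. A joint fit, in which the 12 combinations of 4 tissues and 3 strains share 1 spread, called 130, and the text says where it did not call a gene named below.

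The tissue label was checked against 10 transcripts of ventricular cardiomyocytes, among them Myl2, Tnni3 and Mb. Their mean levels lay between 13.67 and 13.75 on the 15 arrays, and limma called 0 of them, with 0 at an unadjusted p under 0.05. Some arrays held more of other tissues. BPH array 5 carried thymocyte transcripts, with the recombinase gene Rag1 at 8.17 against 2.35 to 3.01 on the other 9 arrays, and the 11 thymocyte markers stood 2.01 above their heart mean. BPN array 2 carried Scgb1a1, a secretory protein of airway cells, at 12.999, while the BPH arrays read 2.28, 2.21, 4.47, 2.12 and 2.03. Atrial markers were low on BPH arrays 2, 4 and 5, at -0.37, -0.43 and -0.24 relative to the heart mean, while the 5 BPN arrays lay from 0.05 to 0.26. For most lists whose count moved by over 1.5 times when BPH arrays 2, 4 and 5 were left out, that count is given as well, and for some also the count with BPH array 5 and BPN array 2 left out. These alternatives were chosen after seeing the data, and fewer arrays enter them.

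**Figure D1:**
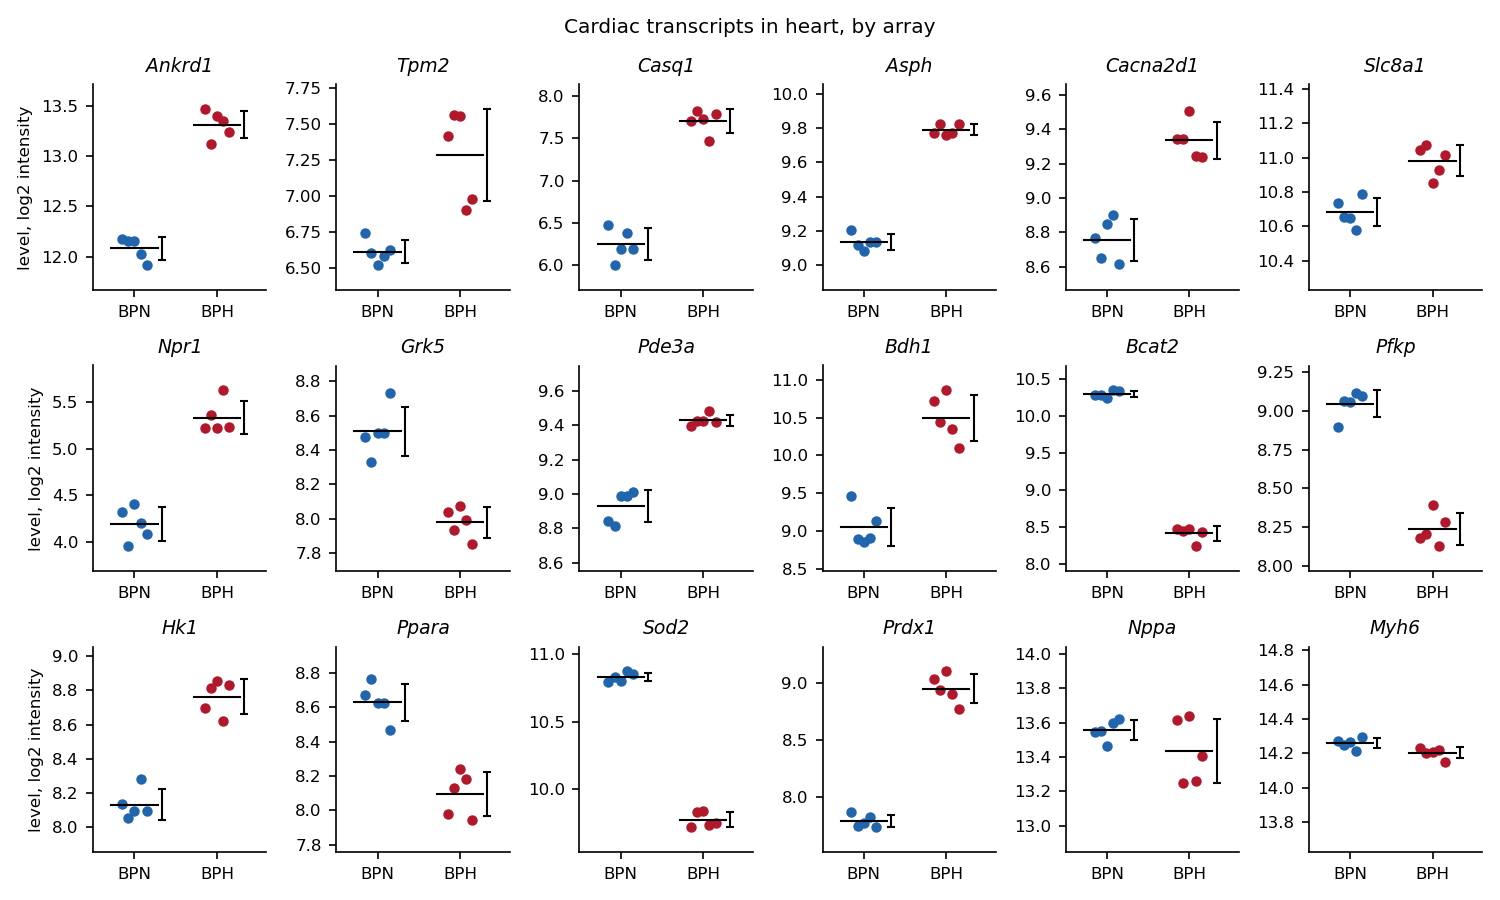
Level (log2 intensity, 1 axis range per gene) of 18 cardiac transcripts on each of 5 BPN and 5 BPH heart arrays. Points are arrays, horizontal bars are means and vertical bars are 1 SD. For every gene but Nppa and Myh6 the arrays of the strains do not overlap, with Ankrd1 from 13.13 to 13.46 in BPH and 11.91 to 12.17 in BPN.

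Among transcripts of cardiac load, Ankrd1 was higher in BPH and the natriuretic peptides and myosins did not pass the test. Ankrd1 read 13.46, 13.13, 13.40, 13.35 and 13.24 on BPH arrays 1 to 5 and 12.17, 12.15, 12.15, 12.02 and 11.91 on BPN arrays 1 to 5. Every BPH array exceeded every BPN array of this stretch-responsive protein of the sarcomere (2.35-fold higher, 1.23 ± 0.08, adjusted p = 4.09e-09). Nppa read 13.61, 13.25, 13.64, 13.26 and 13.41 on BPH arrays 1 to 5 and 13.54, 13.55, 13.47, 13.60 and 13.62 on BPN arrays 1 to 5. The range of BPH arrays covered that of BPN for this precursor of atrial natriuretic peptide (-0.12 ± 0.14, adjusted p = 0.751), and its low BPH readings fell on arrays 2, 4 and 5, which were low in atrial markers. Nppb, the B-type natriuretic peptide, gave -0.35 ± 0.13, adjusted p = 0.131, the adult myosin heavy chain Myh6 gave -0.06 ± 0.04, adjusted p = 0.597 and the fetal one Myh7 gave 0.16 ± 0.11, adjusted p = 0.52. Nppb passed without BPH 3 and with array weights (adjusted p = 0.0328 and 0.0469). Its lowest BPH readings, 11.39, 11.70 and 11.45, also fell on arrays 2, 4 and 5, while BPH arrays 1 and 3 read 11.87 and 12.09. Myh6 read 14.20 in BPH and 14.26 in BPN, near 14.32, the highest level of any list gene, and whether such bright probe sets lose differences was not tested. Of 15 load-response genes measured, 2 rose and 3 fell, with a median of -0.02 beside a median of 0.01 over all probe sets. The other gene to rise was Rcan1, an inhibitor of calcineurin (0.48 ± 0.12, adjusted p = 0.0171). Lower were the actin-binding repeat protein Xirp2 (-0.34 ± 0.07), the clearance receptor Npr3 (-0.53 ± 0.14) and skeletal actin Acta1 (-0.30 ± 0.09). Rcan1 lost its call with either of BPH 1 and BPN 2 left out (adjusted p up to 0.0509) and Npr3 lost its call with any 1 of BPH 2, BPH 4, BPN 1, BPN 5 left out (adjusted p up to 0.0733), and Acta1 dropped past the threshold with any 1 of 8 arrays left out (adjusted p up to 0.111). Without BPH arrays 2, 4 and 5, 2 load-response genes rose and 0 fell. The joint fit did not call Rcan1, Xirp2 or Acta1.

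Called sarcomere genes moved in both directions and, apart from Ankrd1 and Tpm2, by less than 1.5-fold. Of 15 thick filament and titin genes, 2 fell, the cardiac myosin light chain kinase Mylk3 (-0.46 ± 0.05, adjusted p = 1.04e-05) and the non-muscle myosin Myh14 (-0.34 ± 0.07, adjusted p = 0.00334), both without overlap of the strains. Neither was called in the joint fit. Among 16 thin filament genes 2 fell, and the beta-tropomyosin gene Tpm2 was the 1 to rise. Tpm2 read 7.42, 7.56, 7.55, 6.90 and 6.98 on BPH arrays 1 to 5 and 6.74, 6.60, 6.52, 6.59 and 6.62 on BPN arrays 1 to 5. Its lowest BPH array stood above the highest BPN array, and 2 of its BPH arrays lay well below the other 3 (1.59-fold higher, 0.67 ± 0.13, adjusted p = 0.00321). A less bright probe set of Tpm2 gave 0.74 (adjusted p = 0.00741). Of 28 genes of the Z-disc, costamere and intermediate filaments, 3 rose and 5 fell (28.6% called). Beside Ankrd1 the dystrophin-complex protein Sgca (0.44 ± 0.07) and the Z-disc protein Myot (0.50 ± 0.12) rose, while the actin-associated Pdlim1 (-0.45 ± 0.06), the intermediate filament protein Synm (-0.36 ± 0.08), Xirp2, the calcineurin-binding Z-disc protein Myoz2 (-0.26 ± 0.05) and vinculin, Vcl (-0.20 ± 0.05), fell. Vcl lost its call with any 1 of BPH 4, BPN 2, BPN 5 left out (adjusted p up to 0.0646), and Myot, Myoz2 and Xirp2 were not called in the joint fit. Between cells, the gap junction gene Gja1 gave -0.04 ± 0.05, adjusted p = 0.767, while the connexin Gjc1 (0.35 ± 0.07) and the desmosomal cadherin Dsg2 (0.25 ± 0.06) rose and its partner Dsc2 (-0.30 ± 0.06) fell, all 3 below 1.5-fold and none called in the joint fit. With BPH arrays 2, 4 and 5 left out, the Z-disc list gave 3 higher and 1 lower and its median went from -0.01 to 0.03, the thin filament list gave 1 higher and 0 lower and the intercalated disc list 0 higher and 1 lower.

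In calcium handling all 5 called members of 28 measured were higher in BPH, a share of 17.9% beside the 12.7% of all genes above the array median. No call was made at the core of the cycle, where the release channel Ryr2 gave -0.02 ± 0.07, adjusted p = 0.934, the calcium pump Atp2a2 -0.04 ± 0.04, adjusted p = 0.684 and its inhibitor Pln 0.01 ± 0.05, adjusted p = 0.971. Atp2a2 (14.01 in BPH) and Pln (13.96) read nearly as high as Myh6, and whether such bright probe sets lose differences was not tested. Less bright probe sets of Atp2a2 gave 0.06 and 0.10 (limma adjusted p = 0.697 and 0.379). Casq1 read 7.70, 7.82, 7.73, 7.46 and 7.78 on BPH arrays 1 to 5 and 6.48, 6.00, 6.20, 6.38 and 6.19 on BPN arrays 1 to 5. The strains were apart on every array for Casq1, which encodes the calcium store protein named for skeletal muscle (2.73-fold higher, 1.45 ± 0.09, adjusted p = 7.4e-09), whereas the cardiac form Casq2 gave -0.02 ± 0.05, adjusted p = 0.918. Asph read 9.77, 9.82, 9.76, 9.77 and 9.83 on BPH arrays 1 to 5 and 9.20, 9.12, 9.08, 9.13 and 9.13 on BPN arrays 1 to 5. No arrays overlapped for Asph, whose locus encodes junctin of the sarcoplasmic reticulum and an aspartyl hydroxylase (1.58-fold higher, 0.66 ± 0.06, adjusted p = 3.41e-07). A dim second probe set of Asph gave 0.25 (adjusted p = 0.312). Cacna2d1 read 9.34, 9.34, 9.51, 9.25 and 9.24 on BPH arrays 1 to 5 and 8.77, 8.65, 8.85, 8.90 and 8.61 on BPN arrays 1 to 5. This auxiliary subunit of the L-type calcium channel was higher on every BPH array (1.49-fold higher, 0.58 ± 0.08, adjusted p = 4.71e-05), while the pore subunit Cacna1c gave -0.03 ± 0.08, adjusted p = 0.909. The sodium-calcium exchanger Slc8a1 rose by less (0.30 ± 0.06, adjusted p = 0.00486), although the mean of its probe sets gave 0.08 (adjusted p = 0.514). Also higher was the junctional protein Jph2 (0.21 ± 0.06, adjusted p = 0.0333), whose call was lost without any 1 of 7 arrays (adjusted p up to 0.0946) and in the joint fit. With BPH arrays 2, 4 and 5 left out 3 members rose and 0 fell.

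Of 29 sodium and potassium channel genes 8 rose and 2 fell (34.5% called, median 0.05), every one by less than 1.5-fold. Calls kept whichever array was left out were the voltage-insensitive sodium channel Scn7a (0.41 ± 0.06, adjusted p = 0.000188), the background potassium channels Kcnk2 (0.33 ± 0.07) and Kcnk3 (0.26 ± 0.06) and the dim Kcna4 (0.32 ± 0.07), all higher, and the transient outward channel Kcnd3 (-0.30 ± 0.07, adjusted p = 0.0136), lower. A second probe set of Kcnd3 gave -0.02 (adjusted p = 0.95). The other calls were Kcne1, Kcnj5, Kcnj11 and Kcnj12, higher by 0.20 to 0.46, and the calcium-activated channel Kcnn2, lower at -0.38. Of these, Kcnj12 lost its call with either of BPN 1 and BPN 3 left out (adjusted p up to 0.0602), and the other 4 were lost without any 1 of 5 to 9 arrays (adjusted p up to 0.116). The joint fit called 3 of the 10, Kcna4, Scn7a and Kcnj12. Without BPH arrays 2, 4 and 5 the count was 4 higher and 0 lower, and without BPH array 5 and BPN array 2 it was 3 and 2.

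Cyclic nucleotide signalling showed called members in both directions, none lost by leaving out 1 array on the adrenergic side. Of 25 adrenergic and muscarinic genes 3 rose and 2 fell (20%). Grk5 read 8.04, 7.93, 8.07, 7.99 and 7.85 on BPH arrays 1 to 5 and 8.48, 8.33, 8.50, 8.50 and 8.73 on BPN arrays 1 to 5. All BPH arrays were lower for this kinase, which phosphorylates and so desensitises adrenergic receptors (1.44-fold lower, -0.53 ± 0.08, adjusted p = 0.000147), and a second probe set gave -0.94 (adjusted p = 7.46e-07). Pde3a read 9.40, 9.43, 9.42, 9.48 and 9.42 on BPH arrays 1 to 5 and 8.84, 8.82, 8.99, 8.99 and 9.01 on BPN arrays 1 to 5. The strains did not overlap for Pde3a, a phosphodiesterase that degrades cyclic AMP in heart muscle (0.50 ± 0.06, adjusted p = 2.09e-05), but its joint-fit p was 0.0523 and its second probe set gave 0.16 (adjusted p = 0.406). Pde1c, a calmodulin-dependent phosphodiesterase, rose too (0.59 ± 0.09, adjusted p = 0.000145), with all 3 of its probe sets called, as did the catalytic subunit of protein kinase A, Prkaca (0.34 ± 0.06, adjusted p = 0.00148), while the cyclic AMP phosphodiesterase Pde4a fell (-0.37 ± 0.06, adjusted p = 0.000979). Npr1 read 5.22, 5.37, 5.22, 5.62 and 5.23 on BPH arrays 1 to 5 and 4.32, 3.95, 4.41, 4.21 and 4.08 on BPN arrays 1 to 5. The lowest BPH array was above the highest BPN array for Npr1, the guanylyl cyclase receptor of the natriuretic peptides (2.2-fold higher, 1.14 ± 0.11, adjusted p = 1.15e-06), opposite in direction to the clearance receptor Npr3. The BPN mean of Npr1, 4.19, lay below the highest heart array median of 4.717. In the natriuretic, nitric oxide and cyclic GMP list 2 of 22 rose and 1 fell, the third being the cyclic GMP-dependent kinase Prkg1 (0.23 ± 0.06), which the joint fit did not call, and without BPH arrays 2, 4 and 5 the list gave 1 higher and 1 lower. Prkg1 lost its call with any 1 of BPH 2, BPN 2, BPN 4 left out (adjusted p up to 0.0583) and Npr3 lost its call with any 1 of BPH 2, BPH 4, BPN 1, BPN 5 left out (adjusted p up to 0.0733). Of 10 renin-angiotensin genes 2 were called, both lower: angiotensinogen, Agt (-0.57 ± 0.13, adjusted p = 0.0119), and the angiotensin-degrading peptidase Enpep (-0.89 ± 0.12, adjusted p = 7.55e-05). Without BPH arrays 2, 4 and 5, 1 of them was called. Enpep was dim, with means of 3.72 in BPH and 4.61 in BPN, both below the highest heart array median of 4.717.

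Transcription factors that pattern the heart were split. Of 22 genes 3 rose and 4 fell, and the Iroquois factors Irx3 (-0.66 ± 0.10, adjusted p = 0.000154) and Irx5 (-0.56 ± 0.08, adjusted p = 6.86e-05), which act in ventricular conduction and repolarisation, were lower beside the muscle methyltransferase Smyd1 (-0.50 ± 0.08, adjusted p = 0.000234) and Hand2 (-0.26 ± 0.06). Irx3 read 8.86, 9.06, 8.67, 8.79 and 8.998 on BPH arrays 1 to 5 and 9.45, 9.32, 9.77, 9.57 and 9.61 on BPN arrays 1 to 5. No BPH array reached the lowest BPN array. Prox1 (0.32 ± 0.07), Mef2c (0.22 ± 0.06) and Irx4 (0.26 ± 0.07) rose. Mef2c lost its call with either of BPH 2 and BPN 2 left out (adjusted p up to 0.0591) and Irx4 lost its call with any 1 of BPH 2, BPH 3, BPN 2, BPN 4 left out (adjusted p up to 0.0657), and Hand2, Prox1, Mef2c, Irx4 and Tbx5 were not called in the joint fit. Of 19 atrial and conduction markers 4 fell, Irx3, the connexin Gja5 (-0.74 ± 0.19), Nr2f1 (-0.47 ± 0.12) and Tbx5 (-0.38 ± 0.10), with a list median of -0.39. The atrial light chains Myl4 (-0.46 ± 0.25, adjusted p = 0.37) and Myl7 (-0.46 ± 0.26, adjusted p = 0.397) did not pass. Gja5 lost its call with any 1 of BPH 2, BPH 4, BPH 5, BPN 1, BPN 5 left out (adjusted p up to 0.059), Nr2f1 lost its call with any 1 of BPH 2, BPH 4, BPN 2, BPN 4 left out (adjusted p up to 0.0689) and Tbx5 lost its call with any 1 of BPH 2, BPH 4, BPN 1, BPN 4 left out (adjusted p up to 0.0604). Leaving out BPH arrays 2, 4 and 5 left 1 marker called, Irx3, and the patterning factors at 0 higher and 3 lower. Leaving out BPH array 5 and BPN array 2 gave 0 higher and 1 lower markers and 1 higher and 4 lower factors.

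Among fuel genes the largest differences were of single genes, Bdh1 of ketone use and Bcat2 of branched-chain amino acid use, in opposite directions. Of 18 ketone and branched-chain amino acid genes 2 rose and 1 fell, and no array decided any of the 3. Their share of 16.7% stood beside 12.7% of all genes above the array median, and the list median was -0.02. Bdh1 read 10.72, 10.45, 10.86, 10.35 and 10.10 on BPH arrays 1 to 5 and 9.47, 8.90, 8.86, 8.91 and 9.13 on BPN arrays 1 to 5. All BPH arrays were higher for Bdh1, which oxidises beta-hydroxybutyrate in the mitochondrion (2.72-fold higher, 1.44 ± 0.13, adjusted p = 7.13e-07), and a second probe set gave 1.49 (adjusted p = 1.23e-06). Oxct1, which activates acetoacetate in the next steps of ketone use, rose by less (0.25 ± 0.05, adjusted p = 0.0062), and Acat1, which then splits the product, gave -0.04 ± 0.06, adjusted p = 0.782. Bcat2 read 8.46, 8.44, 8.47, 8.23 and 8.43 on BPH arrays 1 to 5 and 10.28, 10.28, 10.24, 10.34 and 10.34 on BPN arrays 1 to 5. The strains lay far apart for Bcat2, the mitochondrial transaminase that starts branched-chain amino acid breakdown (3.71-fold lower, -1.89 ± 0.06, adjusted p = 4.09e-13). Genes of the dehydrogenase that follows it, Bckdha (-0.04 ± 0.06), Bckdhb (0.12 ± 0.06) and Dbt (0.06 ± 0.06), did not pass.

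Of 30 glucose uptake and glycolysis genes 2 rose and 4 fell (20% called), and without BPH arrays 2, 4 and 5 there were 1 higher and 2 lower. Pfkp read 8.18, 8.20, 8.39, 8.12 and 8.28 on BPH arrays 1 to 5 and 8.90, 9.06, 9.06, 9.12 and 9.09 on BPN arrays 1 to 5. Every BPH array was lower for Pfkp, the platelet-type phosphofructokinase (1.75-fold lower, -0.81 ± 0.06, adjusted p = 6.51e-08). Hk1 read 8.70, 8.81, 8.85, 8.62 and 8.83 on BPH arrays 1 to 5 and 8.13, 8.06, 8.10, 8.28 and 8.09 on BPN arrays 1 to 5. Every BPH array was higher for Hk1, the hexokinase that phosphorylates glucose in most tissues (1.55-fold higher, 0.63 ± 0.07, adjusted p = 8.72e-06), although its joint-fit p was 0.0815. The glucose transporter Slc2a12 (-0.45 ± 0.08), the lactate carrier Slc16a1 (-0.29 ± 0.05) and muscle enolase Eno3 (-0.20 ± 0.05) fell, and lactate dehydrogenase Ldha rose (0.16 ± 0.05), a call lost without any 1 of the 10 arrays (adjusted p up to 0.0977). The joint fit did not call Slc16a1, Eno3 or Ldha. Of 31 fatty acid genes 1 rose, the hydratase Echs1 (0.22 ± 0.05), and 3 fell, the thiolase Acaa2 (-0.23 ± 0.05), the lipase Pnpla2 (-0.23 ± 0.06) and the carnitine carrier Slc25a20 (-0.22 ± 0.06). Their share of 12.9% was near that of all bright genes, and none of the 4 was called in the joint fit or without BPH arrays 2, 4 and 5. Slc25a20 lost its call with either of BPH 5 and BPN 3 left out (adjusted p up to 0.0523), and Pnpla2 was lost without any 1 of 7 arrays (adjusted p up to 0.0882). The uptake protein Cd36 (0.00 ± 0.05, adjusted p = 0.997) and the carnitine transferase Cpt1b (-0.09 ± 0.05, adjusted p = 0.436) did not pass.

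Ppara read 7.98, 8.13, 8.24, 8.18 and 7.95 on BPH arrays 1 to 5 and 8.67, 8.76, 8.63, 8.63 and 8.47 on BPN arrays 1 to 5. This nuclear receptor of the fatty acid programme was lower on every BPH array by its brightest probe set (1.45-fold lower, -0.54 ± 0.07, adjusted p = 4.43e-05), but the other probe sets of Ppara gave -0.17 (adjusted p = 0.128) and 0.39 (adjusted p = 0.0117), so its direction depends on the probe set. Ppara was not called in the joint fit, and it was the 1 called of 18 regulators of the PPAR, ERR and PGC-1 group. Pdk4, a kinase that limits glucose oxidation, gave -0.14 ± 0.13, adjusted p = 0.655. In the citric acid cycle and its feeders 2 of 22 rose and 2 fell (18.2% called), led by malic enzyme Me1 (-0.59 ± 0.08, adjusted p = 8.58e-05), while citrate synthase Cs gave -0.06 ± 0.05, adjusted p = 0.537. That list gave 0 higher and 1 lower without BPH arrays 2, 4 and 5. Respiratory chain genes gave few calls. Of 25 complex I genes 1 was called, Ndufv3 (0.30 ± 0.09, lost in the joint fit and without any 1 of 7 arrays, adjusted p up to 0.13), and of 32 genes of complexes III and IV and ATP synthase 1 was called, the ATP synthase inhibitor Atpif1 (0.40 ± 0.05, adjusted p = 7.06e-05). Those shares, 4% and 3.12%, stood beside 12.7% of all bright genes. In the energy-shuttle list Prkab2, a subunit of the AMP-activated kinase, fell (-0.51 ± 0.07, adjusted p = 4.98e-05), and creatine kinase Ckm gave 0.07 ± 0.06, adjusted p = 0.576.

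**Figure D2:**
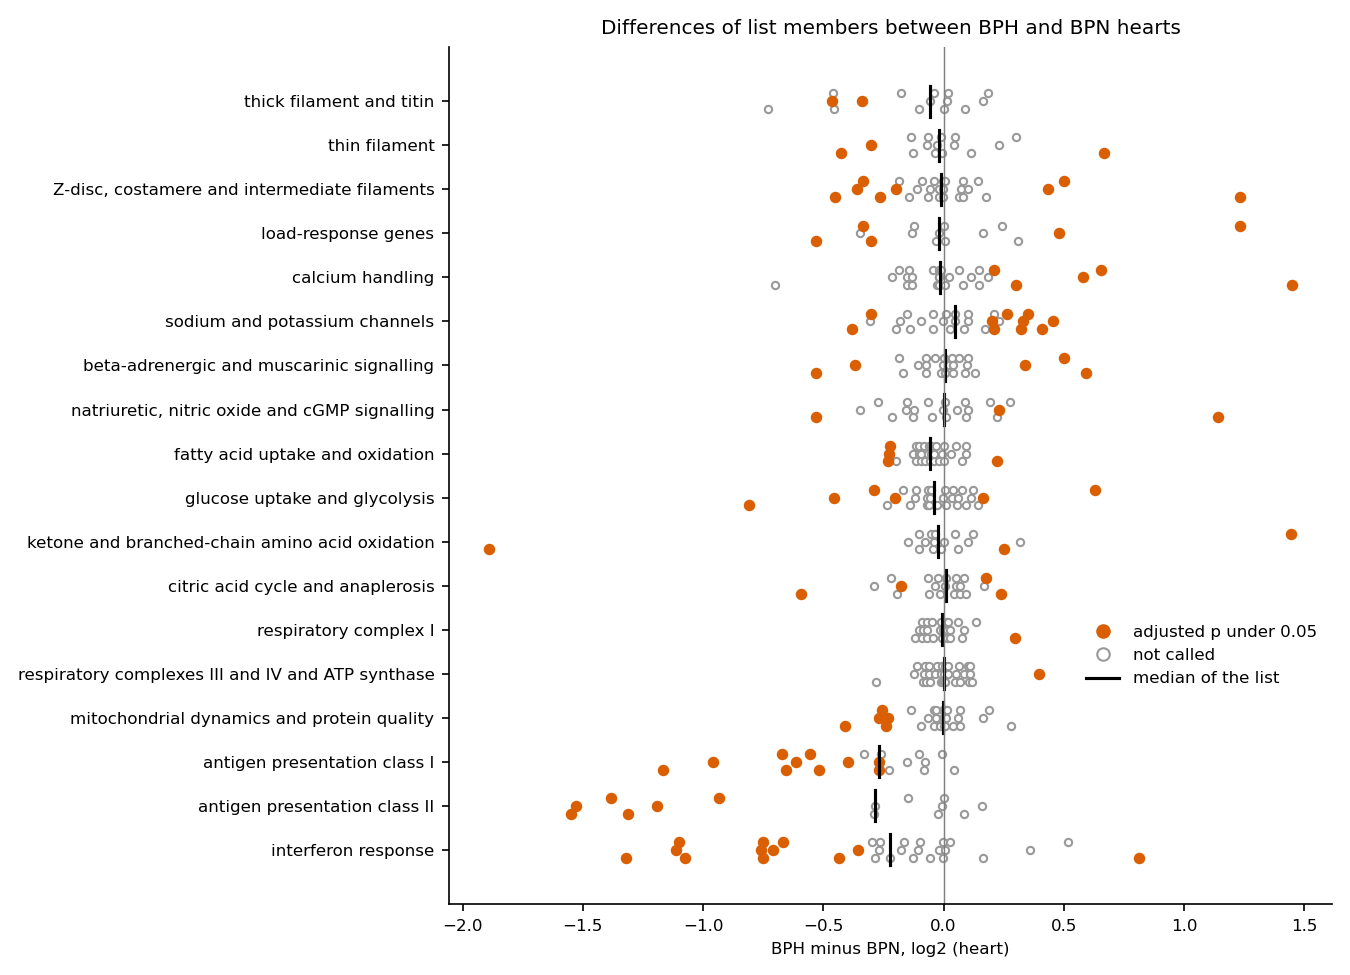
BPH minus BPN difference (log2) of each measured member of 18 lists in heart. Filled points passed an adjusted p of 0.05, open points did not, and vertical bars are list medians. Medians lie near 0 for the muscle and fuel lists and at -0.27, -0.29 and -0.22 for the lowest 3 lists.

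Among antioxidant enzymes Sod2 was lower and Prdx1 higher in BPH. Sod2 read 9.72, 9.83, 9.84, 9.73 and 9.75 on BPH arrays 1 to 5 and 10.80, 10.83, 10.80, 10.87 and 10.85 on BPN arrays 1 to 5. Prdx1 read 9.03, 8.94, 9.10, 8.91 and 8.77 on BPH arrays 1 to 5 and 7.87, 7.75, 7.78, 7.83 and 7.73 on BPN arrays 1 to 5. For both genes the strains were apart on every array, by 2.08-fold lower for Sod2, the mitochondrial superoxide dismutase (-1.06 ± 0.05, adjusted p = 3.32e-10), and 2.24-fold higher for the peroxidase Prdx1 (1.16 ± 0.07, adjusted p = 4.25e-09). A second probe set of Sod2 gave -0.39 (adjusted p = 6.86e-05). Of 32 genes in the list 3 rose and 3 fell, with extracellular Sod3 (-0.33 ± 0.07) and the NADPH oxidase subunit Cybb (-0.41 ± 0.09) lower and Gpx8 (0.41 ± 0.06) higher. Among 26 glutathione S-transferases and aldehyde dehydrogenases 6 fell and 1 rose, and the mitochondrial Aldh1b1 fell most (2.19-fold lower, -1.13 ± 0.13, adjusted p = 1.1e-05). Of 28 chaperone genes 2 rose and 1 fell (10.7% called, beside 12.7% of all genes above the array median). The reticulum chaperone Hyou1 rose (2.98-fold higher, 1.57 ± 0.09, adjusted p = 9.13e-10), with the stress sensor Atf6 (0.34 ± 0.07), while Ddit3 fell (-0.31 ± 0.09). The Ddit3 call was lost without any 1 of 7 arrays (adjusted p up to 0.0964), and neither it nor Cybb was called in the joint fit. The transferase and dehydrogenase list, with BPH arrays 2, 4 and 5 left out, gave 1 higher and 2 lower, its median moving from -0.06 to 0.08, and the joint fit called 2 of it higher and 3 lower. The oxidant list gave 2 higher and 1 lower without those arrays and 6 higher and 2 lower in the joint fit.

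In protein turnover 6 of 31 autophagy and lysosome genes fell and 1 rose. Atg4a read 5.47, 5.47, 5.58, 5.21 and 5.33 on BPH arrays 1 to 5 and 8.34, 8.22, 8.40, 8.35 and 8.35 on BPN arrays 1 to 5. The strains were far apart for Atg4a, a protease that processes autophagosome proteins (7.59-fold lower, -2.92 ± 0.07, adjusted p = 2.52e-15). Gabarapl2, one of the proteins that this protease family processes (-0.56 ± 0.10, adjusted p = 0.00123), the lysosomal glucosidase Gaa (-0.51 ± 0.07, adjusted p = 8.81e-05) and the lysosomal membrane protein Lamp1 (-0.27 ± 0.05) were lower, and the conjugating enzyme Atg7 was higher (0.30 ± 0.07). All 5 called genes of 28 in mitochondrial dynamics and protein quality fell by less than 1.5-fold, among them the fusion protein Mfn2 (-0.27 ± 0.05, adjusted p = 0.00109) and the protease subunit Clpx (-0.41 ± 0.09). Of 24 ubiquitin ligase and proteasome genes 1 rose and 3 fell, with the proteasome subunits Psma7 (0.31 ± 0.05) and Psmd1 (-0.35 ± 0.05) in opposite directions. In the joint fit Lamp1 and Clpx were not called, and 3 autophagy and lysosome genes were lower. With BPH arrays 2, 4 and 5 left out, autophagy and lysosome genes gave 0 higher and 3 lower, mitochondrial quality genes 0 higher and 2 lower and ubiquitin and proteasome genes 2 higher and 1 lower. Mitochondrial quality genes also fell to 2 calls without BPH array 5 and BPN array 2.

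Called antigen presentation genes were lower in BPH hearts without exception. All 10 called members of 19 class I genes fell (52.6%, median -0.27), and so did all 6 called of 14 class II genes (42.9%, median -0.29). H2-K1 read 8.83, 8.06, 8.42, 8.11 and 8.44 on BPH arrays 1 to 5 and 9.21, 9.997, 9.86, 9.35 and 9.27 on BPN arrays 1 to 5. The BPH arrays lay below the BPN arrays for this class I heavy chain (2.24-fold lower, -1.17 ± 0.16, adjusted p = 6.71e-05). H2-Ab1 read 8.33, 7.54, 8.01, 7.91 and 8.26 on BPH arrays 1 to 5 and 9.11, 10.16, 9.94, 9.36 and 9.13 on BPN arrays 1 to 5. Again no arrays overlapped for H2-Ab1, a class II chain (2.88-fold lower, -1.53 ± 0.19, adjusted p = 2.43e-05), and BPN arrays 2 and 3 read highest. The class I light chain B2m (-0.67 ± 0.12, adjusted p = 0.00106), the heavy chain H2-D1 (-0.96 ± 0.14) and the peptide transporter Tap1 (-0.56 ± 0.12) fell, and among class II genes H2-Ea (-1.55 ± 0.17), H2-Eb1 (-1.38 ± 0.17), H2-Aa (-1.19 ± 0.21), the invariant chain Cd74 (-1.31 ± 0.16) and the peptide-loading chain H2-DMa (-0.93 ± 0.16). Genes of this locus are alike in sequence and variable between strains, and signal that 1 probe set takes from several of them was not separated here. Calls of H2-Q7, Tapbp, Tapbpl, Psmb9 and Nlrc5 were each lost without some 1 array (adjusted p up to 0.122), and H2-Q7 was not called in the joint fit. Mean levels of the class I list lay from -0.25 to 0.04 relative to the heart mean on BPH arrays and from 0.01 to 0.44 on BPN arrays, and those of class II from -0.24 to 0.06 and from 0.29 to 0.74. Without BPH array 5 and BPN array 2, 5 class I and 6 class II genes were lower, and without BPH arrays 2, 4 and 5, 2 and 5.

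**Figure D3:**
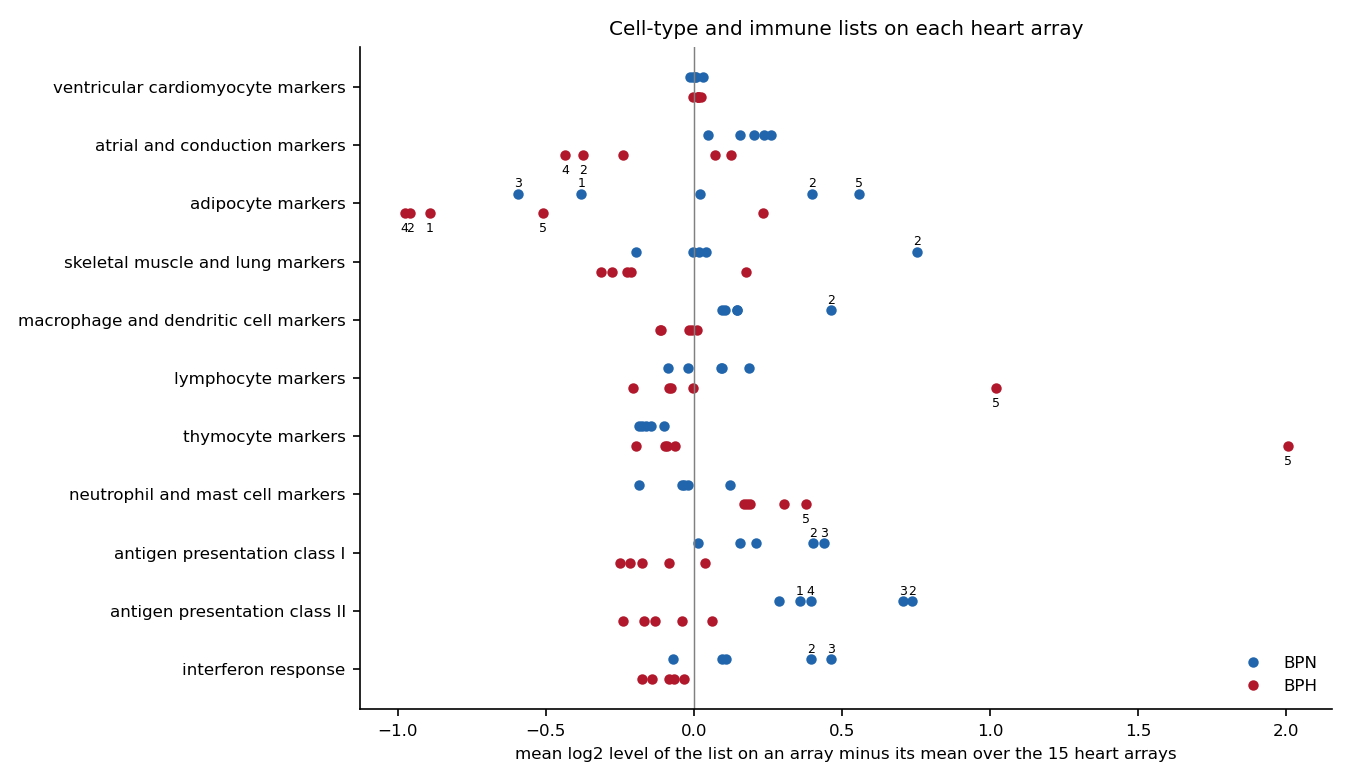
Mean level of 11 cell-type and immune lists on each BPN and BPH heart array, as the log2 deviation from the list's mean over the 15 heart arrays. Points are arrays, and numbers give the array where the deviation is beyond 0.35. BPH array 5 lies at 2.01 for thymocyte markers, and BPN arrays 2 and 3 lead the interferon list at 0.40 and 0.46.

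Interferon-inducible GTPases were the main calls of the interferon list. Of 31 genes in the list 11 fell and 1 rose (38.7% called, median -0.22), and 10 of the 11 that fell encode GTPases of the guanylate-binding and immunity-related families, which act against microbes inside cells. The largest falls were of Igtp (-1.32 ± 0.31), Tgtp1 (-1.11 ± 0.21), Irgm2 (-1.10 ± 0.24) and Gbp7 (-1.07 ± 0.09). Tgtp1 was dim, with means of 3.29 in BPH and 4.41 in BPN, both below the highest heart array median of 4.717. Gbp7 read 6.32, 5.98, 5.98, 5.95 and 6.02 on BPH arrays 1 to 5 and 7.12, 7.24, 7.41, 6.99 and 6.86 on BPN arrays 1 to 5. The strains did not overlap for Gbp7, and each spread over less than 1 log2 unit (2.1-fold lower, -1.07 ± 0.09, adjusted p = 4.33e-07). Igtp read 6.78, 6.49, 6.42, 6.74 and 6.63 on BPH arrays 1 to 5 and 7.49, 8.84, 9.09, 7.31 and 6.94 on BPN arrays 1 to 5. BPN arrays spread widely for Igtp, with arrays 2 and 3 highest, and the BPH arrays lay below all of them (2.5-fold lower, -1.32 ± 0.31, adjusted p = 0.0109). As a list mean, BPH arrays lay from -0.17 to -0.03 and BPN arrays from -0.07 to 0.46 relative to the heart mean, and so overlapped. Ifi35, an interferon-induced protein of another kind, rose (0.81 ± 0.07, adjusted p = 1.91e-07). Of the calls, Irgm1 lost its call with any 1 of BPH 2, BPH 4, BPN 2, BPN 3 left out (adjusted p up to 0.0772) and Ifi47 lost its call with any 1 of BPH 3, BPH 4, BPN 2, BPN 3 left out (adjusted p up to 0.0591), and the transcription factor Irf9 was lost without any 1 of 8 arrays (adjusted p up to 0.125) and in the joint fit. The number lower was 7 without BPH array 5 and BPN array 2, and 4 without BPH arrays 2, 4 and 5.

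Since these GTPases fell together, the reference promoters of 4 of them are shown, from 250 bases before to 50 after the start of the gene, 5′ to 3′ on the strand of the gene, from RefSeq on GRCm38.p6. The reference is another mouse strain, and promoters of BPH and BPN were not read here. Capitals mark matches, on either strand, to the interferon-stimulated response element (GAAA, any 2 bases, GAAA) and the gamma-activated site TTCNNNGAA. They stand at chr11:58199306-58199605 (plus strand) for Igtp, chr11:58214727-58215026 (plus) for Irgm2, chr3:142530086-142530385 (plus) for Gbp7 and chr3:142496684-142496983 (plus) for Gbp5.
Igtp: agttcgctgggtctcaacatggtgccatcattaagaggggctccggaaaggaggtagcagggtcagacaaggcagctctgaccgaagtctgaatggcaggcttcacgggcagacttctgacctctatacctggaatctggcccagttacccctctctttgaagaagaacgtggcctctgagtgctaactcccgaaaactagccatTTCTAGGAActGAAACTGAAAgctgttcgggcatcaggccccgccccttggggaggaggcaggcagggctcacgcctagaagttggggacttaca
Irgm2: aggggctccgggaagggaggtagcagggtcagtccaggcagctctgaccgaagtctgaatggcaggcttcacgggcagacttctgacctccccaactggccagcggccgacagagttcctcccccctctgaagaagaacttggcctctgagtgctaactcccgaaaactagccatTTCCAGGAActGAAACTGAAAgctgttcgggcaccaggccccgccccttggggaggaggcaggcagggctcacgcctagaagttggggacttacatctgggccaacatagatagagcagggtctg
Gbp7: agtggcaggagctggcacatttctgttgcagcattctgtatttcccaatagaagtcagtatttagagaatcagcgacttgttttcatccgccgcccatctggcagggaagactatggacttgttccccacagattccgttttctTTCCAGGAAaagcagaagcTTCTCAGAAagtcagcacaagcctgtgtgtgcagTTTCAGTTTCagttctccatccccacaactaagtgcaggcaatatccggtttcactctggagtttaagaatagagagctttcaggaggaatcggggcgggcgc
Gbp5: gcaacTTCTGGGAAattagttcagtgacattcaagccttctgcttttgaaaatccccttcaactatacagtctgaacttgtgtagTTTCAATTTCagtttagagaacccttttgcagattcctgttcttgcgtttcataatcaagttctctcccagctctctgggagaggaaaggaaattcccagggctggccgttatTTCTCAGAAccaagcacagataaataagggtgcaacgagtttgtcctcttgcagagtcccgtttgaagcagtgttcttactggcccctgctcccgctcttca
Of the 10 called GTPases 9 had a promoter in the table, and 8 of the 9 held the response element, against 3.44% of 32851 mouse promoters of the same length. The gamma-activated site was in 5 of the 9, against 8.3% of all promoters. Of 16 called antigen presentation genes 11 had a promoter, of which 1 held the response element, B2m, and 1 the gamma-activated site, Psmb8. The box CCAAT, searched on both strands, was in 10 of those 11 and in 2 of the 9 GTPase promoters, against 37.41% of all. A match is a run of letters in this window and says nothing of binding in these hearts. The GTPases were taken by name from a list of interferon-inducible genes, and uncalled genes of that list were not set beside them. Their share of sites therefore cannot be tied to their fall in BPH.

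The largest difference among cytokine genes was the fall of Il15. Il15 read 5.98, 5.93, 6.07, 6.10 and 5.88 on BPH arrays 1 to 5 and 9.33, 9.13, 9.50, 9.25 and 9.33 on BPN arrays 1 to 5. Every BPH array lay far below every BPN array for this growth factor of natural killer and memory T cells (9.94-fold lower, -3.31 ± 0.07, adjusted p = 1.52e-15), and its receptor chain Il15ra read -0.24 ± 0.06, adjusted p = 0.0283. Of 35 cytokine and receptor genes 9 fell and 1 rose. The chemokines Ccl2 (-0.96 ± 0.13, adjusted p = 8.45e-05) and Ccl5 (-0.84 ± 0.19, adjusted p = 0.00946), the alarmin Il33 (-0.72 ± 0.18) and the interleukin-10 receptor chains Il10rb (-0.45 ± 0.06) and Il10ra (-0.42 ± 0.10) were lower, and Cxcl12, a chemokine of stroma and endothelium, was higher (0.38 ± 0.06, adjusted p = 0.000624). Il33 lost its call with either of BPH 2 and BPN 2 left out (adjusted p up to 0.0565), Tnfrsf1b lost its call with any 1 of BPH 1, BPH 5, BPN 2, BPN 4 left out (adjusted p up to 0.0811) and Il15ra lost its call with any 1 of BPH 1, BPH 2, BPH 5, BPN 1, BPN 2 left out (adjusted p up to 0.0858). The joint fit called 3 of the list, Il15, Il33 and Il10rb. The list, without BPH arrays 2, 4 and 5, gave 2 higher and 3 lower, and without BPH array 5 and BPN array 2 1 higher and 6 lower.

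Markers of immune cells moved in different directions. Of 23 macrophage and dendritic cell markers 6 fell, including the complement chains C1qb (-0.74 ± 0.12, adjusted p = 0.000327) and C1qc (-0.62 ± 0.10) and the surface protein Adgre1 (-0.70 ± 0.12, adjusted p = 0.00102), while the receptor Csf1r gave -0.07 ± 0.06, adjusted p = 0.605. Their mean level lay from -0.12 to 0.01 on BPH arrays and from 0.10 to 0.46 on BPN arrays relative to the heart mean, and their part in the fall of class II genes was not tested. BPN array 2 stood apart in this list, and 5 markers were lower without it and BPH array 5, 3 without BPH arrays 2, 4 and 5. S100a9 read 7.44, 7.13, 6.67, 6.43 and 7.40 on BPH arrays 1 to 5 and 5.17, 5.73, 5.63, 5.51 and 5.66 on BPN arrays 1 to 5. All BPH arrays were higher for this calcium-binding protein of neutrophils and monocytes (2.78-fold higher, 1.47 ± 0.16, adjusted p = 7.96e-06), with its partner S100a8 (2.14-fold higher, 1.10 ± 0.15, adjusted p = 0.000115). The other called members of the 14 neutrophil and mast cell markers were Mmp9 (0.55 ± 0.13) and the receptor Csf3r (0.45 ± 0.11), also higher, while the granule genes Ngp (-0.01 ± 0.10, adjusted p = 0.974) and Camp (0.07 ± 0.07, adjusted p = 0.69) did not pass. Csf3r lost its call with BPH 1 left out (adjusted p up to 0.0502), and the joint fit did not call Csf3r or S100a8. The neutrophil and mast cell list gave 2 higher and 0 lower without BPH arrays 2, 4 and 5. Of 18 lymphocyte markers 1 was called, Gzma (0.44 ± 0.13), a call lost without any 1 of 7 arrays (adjusted p up to 0.126) and in the joint fit, and thymocyte markers gave 0 limma calls of 11, with 1 at an unadjusted p under 0.05.

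Vessel and matrix genes showed a few large differences among many without a call. Of 41 endothelial and angiogenic genes 3 rose and 2 fell (12.2% called), a share near the 12.7% of all genes above the array median. The vessel-stabilising ligand Angpt1 was higher (0.45 ± 0.07, adjusted p = 0.000204), its antagonist Angpt2 lower (-0.58 ± 0.12, adjusted p = 0.00379) and the growth factor Vegfc higher (0.51 ± 0.09, adjusted p = 0.000728). The endothelial marker Pecam1 gave 0.24 ± 0.09, adjusted p = 0.113 and was called after quantile normalization or without BPN array 4 (adjusted p = 0.0399 and 0.0428). The joint fit did not call Angpt1. Rgs5 read 10.10, 10.20, 10.07, 10.14 and 10.16 on BPH arrays 1 to 5 and 9.13, 8.91, 9.35, 9.32 and 9.16 on BPN arrays 1 to 5. Every BPH array was higher for Rgs5, a regulator of G-protein signalling typical of pericytes (1.94-fold higher, 0.96 ± 0.08, adjusted p = 1.09e-07), and the joint fit kept it, while smooth muscle actin Acta2 fell (-0.42 ± 0.10, adjusted p = 0.00942). Of 50 fibroblast and matrix genes 3 rose and 6 fell (18%), and collagen Col1a1 gave -0.12 ± 0.14, adjusted p = 0.744. Emilin2 read 4.87, 4.86, 4.80, 5.08 and 5.00 on BPH arrays 1 to 5 and 7.02, 7.26, 6.40, 7.37 and 7.38 on BPN arrays 1 to 5. The strains were apart for Emilin2, a glycoprotein of elastic fibres (4.49-fold lower, -2.17 ± 0.14, adjusted p = 8.93e-09). Thrombospondin Thbs1 (-0.70 ± 0.12, adjusted p = 0.000856) fell, and the elastic fibre protein Mfap4 (0.70 ± 0.13, adjusted p = 0.00138) and the collagen-binding Sparc (0.41 ± 0.09, adjusted p = 0.00493) rose. Probe sets of the matrix protein Spon1 disagreed, with -1.28 ± 0.07 by the brightest and 2.29 (adjusted p = 8.77e-12), 3.29 (adjusted p = 5.84e-14) and 0.21 (adjusted p = 0.222) by the others. Among 27 matrix proteases and inhibitors 3 rose and 1 fell. Mmp3 read 5.56, 5.23, 5.84, 5.40 and 5.15 on BPH arrays 1 to 5 and 2.88, 3.24, 2.98, 2.99 and 2.97 on BPN arrays 1 to 5. BPN arrays lay near the floor of the array for the protease Mmp3, so no fold is given (2.43 ± 0.11, adjusted p = 6.07e-11), and the inhibitor Timp4, abundant in heart, rose as well (1.96-fold higher, 0.97 ± 0.11, adjusted p = 1.16e-05). Of 35 TGF-beta and BMP genes 1 rose and 2 fell (8.57% called, beside 12.7% of all genes above the array median), and the inhibitor of differentiation Id2 was lower (-0.65 ± 0.15, adjusted p = 0.00845). With BPH arrays 2, 4 and 5 left out, the endothelial list gave 3 higher and 0 lower, the matrix list 1 higher and 5 lower, the protease list 2 higher and 0 lower and the TGF-beta and BMP list 0 higher and 0 lower.

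Of 38 sterol and lipid synthesis genes 3 rose and 1 fell (10.5% called, beside 12.7% of all genes above the array median). Hsd17b7 read 9.20, 9.23, 8.88, 9.08 and 9.07 on BPH arrays 1 to 5 and 5.93, 5.74, 5.87, 5.78 and 5.86 on BPN arrays 1 to 5. The BPH arrays stood far above the BPN arrays for Hsd17b7, a reductase of cholesterol synthesis (9.57-fold higher, 3.26 ± 0.08, adjusted p = 2.99e-15), and a second probe set gave 2.48 (adjusted p = 4.94e-11). Scd1, a fatty acid desaturase abundant in fat, fell (-1.91 ± 0.49, adjusted p = 0.0231) with wide spread, and adipocyte markers, of which 13 were measured, ranged from -0.98 to 0.23 on BPH and from -0.59 to 0.56 on BPN arrays. Scd1 lost its call with any 1 of BPH 2, BPH 4, BPN 2, BPN 5 left out (adjusted p up to 0.068). Of 25 iron, haem and oxygen genes 4 rose, led by the biliverdin reductase Blvra (0.58 ± 0.07, adjusted p = 2.48e-05), the hemojuvelin gene Hjv (0.57 ± 0.06, adjusted p = 2.34e-06) and the haem enzyme Cpox (0.40 ± 0.06), and 2 fell, the iron hormone Hamp (-1.54 ± 0.42) and the transferrin receptor Tfrc (-0.35 ± 0.10). Both falls were lost without any 1 of 6 and 7 arrays (adjusted p up to 0.106) and in the joint fit. Dbp (-0.45 ± 0.13), Nr1d1 (-0.37 ± 0.10) and Nr1d2 (-0.35 ± 0.09) were lower among 21 clock genes, but each call was lost without some 1 array (adjusted p up to 0.102) and in the joint fit. Hour of collection was not given. The sterol list, without BPH arrays 2, 4 and 5, gave 3 higher and 0 lower, the iron list 3 higher and 0 lower and the clock list 0 higher and 0 lower.

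Genes of the largest difference lay mostly outside the muscle programme. The increases were of Gdpd3, a lysophospholipase (55-fold higher, 5.78 ± 0.10), AA465934 (27.2-fold higher, 4.77 ± 0.06), Thumpd1, an adaptor for tRNA acetylation (4.40 ± 0.06), the secreted Tafa2 (3.99 ± 0.08), Hsd17b7, Ankrd33b (3.23 ± 0.13), the cytochrome Cyp4b1 (8.18-fold higher, 3.03 ± 0.09), Stbd1, which tethers glycogen to membranes (2.65 ± 0.13), Bex1 (2.52 ± 0.19), Tmem87a (2.51 ± 0.07), Mindy4b-ps (2.50 ± 0.14) and Mmp3. The decreases were of Tmem267 (16.6-fold lower, -4.06 ± 0.09), Il15, Atg4a, the vesicle GTPase Rab6b (-2.82 ± 0.15), Gm4841 (-2.48 ± 0.59), the lipid transporter Abca4 (-2.38 ± 0.10), Emilin2, the sialic acid enzyme Npl (-2.10 ± 0.13), the cadherin Cdh4 (-2.07 ± 0.10), the adhesion receptor Adgre5 (-1.94 ± 0.06), Scd1 and Bcat2. Separation of BPH from BPN arrays was a condition for choosing these 24, and adjusted p ran from 1.19e-18 to 0.0231. The other 2 probe sets of Ankrd33b gave 0.11 (adjusted p = 0.435) and -0.24 (adjusted p = 0.0691), and whether sequence differences between the strains under a probe change its signal was not tested.

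Hearts of hypotensive BPL mice (69 ± 1.7 mmHg per the design text) were measured against the same BPN arrays. Several cardiac genes named above lay on the same side of BPN as in BPH. Among them were Slc8a1 (0.32 ± 0.06) and Sod2 (-1.09 ± 0.05), while Prdx1 (0.05 ± 0.07) and Ppara (-0.15 ± 0.07) were not called in BPL. The next genes also lay on the BPH side. Ankrd1 read 0.44 ± 0.08 in BPL minus BPN, Casq1 1.18 ± 0.09, Asph 0.47 ± 0.06, Npr1 0.32 ± 0.11 (not called), Bdh1 1.79 ± 0.13, Pfkp -1.07 ± 0.06 and Hk1 0.81 ± 0.07. Il15 read -3.27 ± 0.07, H2-Ab1 -2.002 ± 0.19, Gbp7 -1.08 ± 0.09 and Emilin2 -1.95 ± 0.14, beside BPH differences of -3.31, -1.53, -1.07 and -2.17. Bcat2 was called higher in BPL (0.24 ± 0.06, limma adjusted p = 0.0188), opposite to its fall in BPH. Hsd17b7 (-0.15 ± 0.08), Atg4a (-0.01 ± 0.07) and Gdpd3 (0.06 ± 0.10) were not called in BPL (limma adjusted p = 0.29, 0.973 and 0.807). Of all probe sets 9.34% were called in BPL minus BPN. Both comparisons share the BPN arrays, so that a chance reading of those arrays enters both.

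The BPH minus BPN difference in heart was then tested against its mean in kidney and liver, tissues prepared with the same labelling protocol. Of all probe sets 2114 differed (5.51%, and 7.03% of named genes), and so did 93 of the 210 called list genes, of which 56 were above the array median in both other tissues. Of the 56, 40 were not called in the same direction in kidney or liver, where 7.05% and 7.14% of all probe sets were called. The 210 were called on these same heart arrays, and the 56 were chosen for differing from kidney and liver. Such choices raise the counts of 93 and 40, so they are not comparable with the shares over all probe sets. Hsd17b7 gave 3.26 ± 0.08 in heart, -0.26 ± 0.07 in kidney and -0.24 ± 0.08 in liver (interaction adjusted p = 4.1e-29). The direction of Hsd17b7 in kidney was thus opposite and called (adjusted p = 0.0303). The fall of Il15 was -0.33 ± 0.09 in kidney and -0.06 ± 0.10 in liver (interaction adjusted p = 7.03e-25), and the rise of Bdh1 0.01 ± 0.07 and 0.26 ± 0.08 (interaction adjusted p = 1.1e-10). Asph (0.01 ± 0.11 and 0.18 ± 0.10), Pfkp (-0.23 ± 0.08 and -0.07 ± 0.12) and Prkaca (0.10 ± 0.07 and -0.08 ± 0.06) also differed more in heart, with interaction adjusted p = 0.000876, 0.000122 and 0.00149. Ankrd1 and Casq1 read below the array medians in kidney and liver, so their interactions compare a cardiac transcript with tissues that hold little of it. The creatine synthesis enzyme Gatm rose in heart (0.43 ± 0.09, adjusted p = 0.00625) and fell in kidney (-0.62 ± 0.06) and liver (-0.43 ± 0.10), with adjusted p = 1.74e-06 and 0.00733 and an interaction adjusted p = 5.22e-09. Other genes moved the same way elsewhere. Prdx1 gave 0.86 ± 0.08 in kidney and 1.04 ± 0.08 in liver, and H2-Ab1 -1.55 ± 0.18 and -1.35 ± 0.16, neither with a called interaction (adjusted p = 0.254 and 0.93), while H2-K1 fell more in heart (kidney -0.57 ± 0.11, liver -0.24 ± 0.08, interaction adjusted p = 0.000917). Sod2 (-0.83 ± 0.06 and -0.63 ± 0.07), Bcat2 (-1.08 ± 0.07 and -1.12 ± 0.09) and Hyou1 (1.07 ± 0.09 and 1.09 ± 0.11) were called in the same direction in all 3 tissues, with a larger difference in heart (interaction adjusted p = 0.00163, 1.24e-08 and 0.00856). Aorta was labelled by another protocol, with 9.15% of probe sets called, and its values are shown in the plot of the strain difference by tissue.

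**Figure D4:**
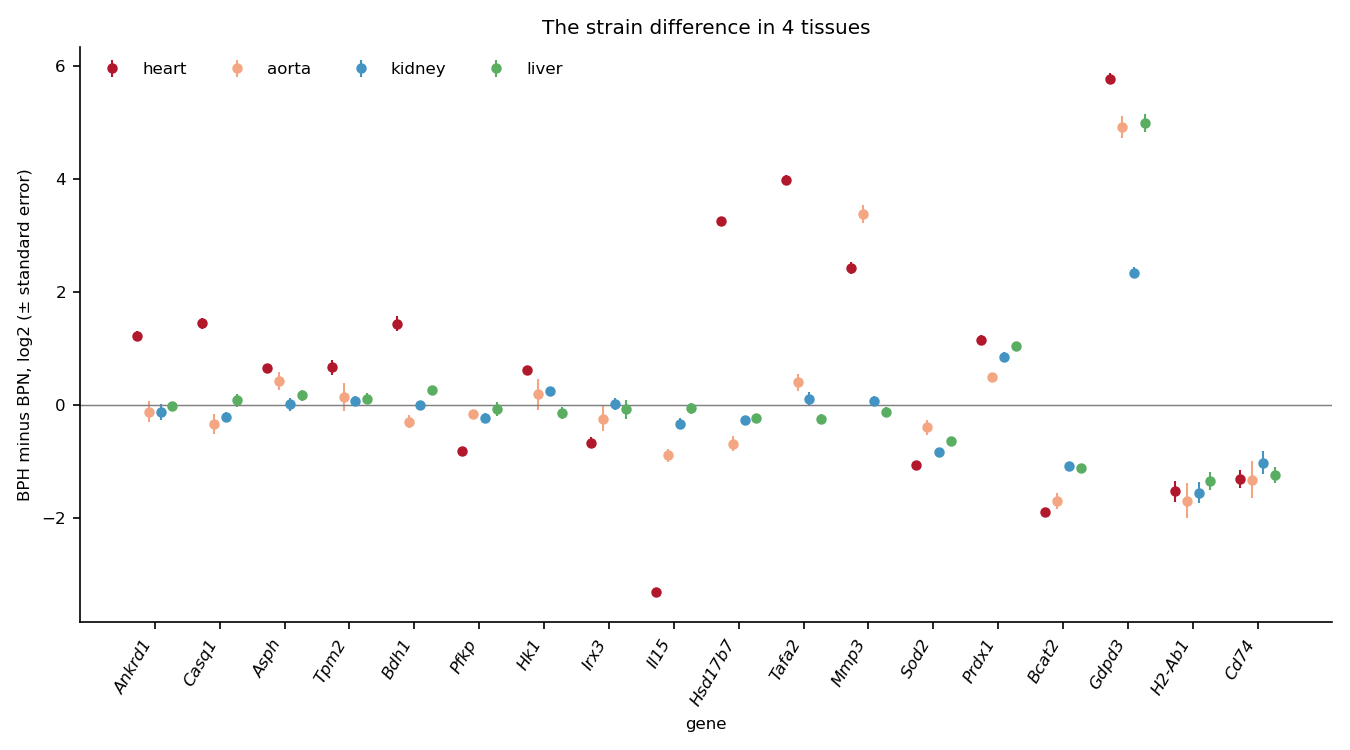
BPH minus BPN difference (log2, points) with the standard error of the limma fit of each tissue (vertical bars) for 18 genes in heart, aorta, kidney and liver. Il15, Hsd17b7, Tafa2 and Bdh1 stand away from 0 in heart and nearer to 0 in kidney and liver, whereas Gdpd3, Bcat2, Sod2, Prdx1, H2-Ab1 and Cd74 lie on the same side of 0 in the 4 tissues.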

How the data were processed

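RNA of mouse heart was measured on a Merck/Affymetrix custom array with 38385 probe sets. Per the labels and the design text, heart RNA was amplified and labelled by an RT/IVT protocol, and the authors normalized raw intensity with RMA. The deposited values are intensities on a linear scale (1.8 to 22648 over 67 arrays). The genome build is not given in the sources used here. Array medians were 24.6 to 26.3, and for arrays the number of replicates limits precision.

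Values were taken to log2 with a pseudocount of 0. Strains were fitted with limma 3.58.1 in R 4.3.3 (lmFit and eBayes, 15 heart arrays, no covariate), with Benjamini-Hochberg adjustment over 38385 probe sets and a threshold of 0.05. The tissue contrast used 44 heart, kidney and liver arrays. The code was tested on simulated data. Folds are not given where a group mean was under 3.325 (log2), the highest lower quartile of a heart array. Named by rule were a set of fixed genes, up to 3 called members of each list of largest difference whose arrays did not overlap, and the 12 largest rises and 12 largest falls among called genes with such arrays and a higher mean above the array median. Further list members in the text were picked with their values in view. Members and lists were chosen with earlier results of these data known. Replicate numbers share no stated animal, and same-numbered arrays did not deviate together (r from -0.067 to 0.194 over probe sets), so they pair nothing. Promoters are those of RefSeq on GRCm38.p6. Alternatives covered the arrays fitted, variance trend, array weights, a filter, the pseudocount, scaling and probe set choice.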

Additional observations from a re-analysis of the deposited data

Results flagged for a closer look

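Single arrays stood apart from the other 4 of their strain by Dixon's test (critical value 0.71) in 11 of 128 groups checked, over 16 marker and immune lists and 48 named genes, where chance marks about 1 in 20. As mean log2 deviations of a list, BPN array 2 stood at 0.46 for macrophage and dendritic cell markers and at 0.75 for skeletal muscle and lung markers, in which BPH array 3 stood at 0.18. BPH array 5 stood at 2.01 for thymocyte and 1.02 for lymphocyte markers. As log2 levels, Cd36 read 12.59 on BPH array 1, C1qb 9.86 on BPN array 2, Stbd1 6.63 on BPH array 3 and Bcat2 8.23 on BPH array 4. Npl, an enzyme of sialic acid breakdown, read 4.96 on BPH array 5 and 7.03 on BPN array 2.

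The strain difference in heart departed from its mean in kidney and liver for 25 of the 48 named genes by the interaction term of limma. The 48 include genes chosen for a large difference in heart, which raises this count. Each value is the heart difference minus the mean of the kidney and liver differences, on the log2 scale. The cardiac genes were Ankrd1 (1.30), Slc8a1 (0.39), Ppara (-0.40), Sod2 (-0.32) and Atp2a2 (0.37), of which Atp2a2 had no called difference in heart itself. Higher in heart relative to that mean were Tafa2 (4.06), Hsd17b7 (3.51), Mindy4b-ps (2.57), Mmp3 (2.45), Bex1 (2.40), Stbd1 (2.33), Gdpd3 (2.11), AA465934 (1.73), Tmem87a (0.71) and Thumpd1 (0.69). Of these, Tafa2, Mindy4b-ps and Mmp3 read below the array medians in kidney and liver, as did Ankrd1, and Bex1 in liver, as did Slc8a1 there. Tmem267 (1.67) and Atg4a (0.42) fell less in heart than in that mean. Lower in heart relative to that mean were Il15 (-3.12), Gm4841 (-2.25), Emilin2 (-2.10), Rab6b (-2.03), Abca4 (-1.95), Cdh4 (-1.60), Npl (-1.04) and Bcat2 (-0.79), with Gm4841 and Emilin2 below the array medians in kidney and liver and Rab6b and Cdh4 in liver. Where a tissue reads so low, the contrast sets heart against little signal.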

How the results depend on the processing

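The count of 2695 probe sets called was within 1.5 times under 18 of 20 alternatives (lowest and highest 1530 and 3134). The exceptions were the joint fit of 12 groups (1530) and 1 probe set a gene (1791), which tests fewer features. The cause of the first was not tested. Leaving out 1 array gave 2189 to 2507 calls, 164 to 196 list genes against 210, and 1800 to 1944 for the tissue contrast against 2114. List genes numbered 130 in the joint fit and, in alternatives chosen after seeing the data, 106 without BPH arrays 2, 4 and 5 and 152 without BPH array 5 and BPN array 2, where fewer arrays were tested. The tissue contrast stayed within 1.5 times in all 14 alternatives run. With the replicate number as a block, 2405 probe sets, 186 list genes and 2052 in the tissue contrast were called. The numbers do not pair arrays, and 1 of 5 arrays correlated best with its own number. Among the named genes the block moved Scd1 past the threshold (adjusted p = 0.0508) and no other call.

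Of 956 values of 48 named genes under alternatives, 930 kept direction and side of the threshold, 11 lost the call and 4 gained it. Of 33 called genes 28 were called in every alternative fixed at the start. The other 5 were Scd1, Gm4841, which lost its call at a pseudocount of 16 (adjusted p = 0.0568), and Slc8a1, Kcnd3 and Ppara, which lost it with the mean of all probe sets. Of genes without a call, 11 values turned sign. With the mean of all probe sets Myh6 gave 0.078 and Atp2a2 0.0372. With 1 array left out, Pln ranged from -0.0109 to 0.0248 (below 0 without BPH 1, BPN 3 or BPN 4), Ryr2 from -0.0585 to 0.0156 (above 0 without BPN 5), Cd36 from -0.0098 to 0.0143 (below 0 without BPH 1, BPN 1, BPN 2 or BPN 3) and Col1a1 from -0.211 to 0.0364 (above 0 without BPN 2).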

Other observations

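Of 34 hypertrophic signalling genes 3 rose and 3 fell (median -0.01), and the growth kinase Mtor was lower (-0.27 ± 0.06, adjusted p = 0.00718). The deacetylase Hdac5 rose (0.26 ± 0.07), a call lost without any 1 of 5 arrays (adjusted p up to 0.0811) and in the joint fit of tissues. Among 22 cell cycle genes the cyclin Ccnd2 rose (0.43 ± 0.07, adjusted p = 0.000507, not called in the joint fit) and its relative Ccnd1 fell (-0.35 ± 0.10, adjusted p = 0.0364), the latter lost without any 1 of 8 arrays (adjusted p up to 0.0976) and in the joint fit. Of 27 cell death genes 1 rose and 1 fell (7.41% called, beside 12.7% of all genes above the array median). The fall was of the pore-forming Bak1 (-0.34 ± 0.08, adjusted p = 0.0159). The arginine carrier Slc7a2 fell (-0.49 ± 0.11, adjusted p = 0.0099) and the alanine tRNA synthetase Aars rose (0.28 ± 0.06, adjusted p = 0.00391), the called genes of 27 in that list (7.41%). Immediate early genes, which respond within minutes to handling of tissue, gave 2 calls of 25 (8%), Junb (0.51 ± 0.14, adjusted p = 0.0348) and Btg2 (0.42 ± 0.13, adjusted p = 0.0492), each lost without any 1 of 7 arrays (adjusted p up to 0.137), and Btg2 was not called in the joint fit. Without BPH arrays 2, 4 and 5 the lists gave 1 higher and 0 lower for hypertrophic signalling, 1 higher and 0 lower for cell cycle, 0 higher and 0 lower for cell death and 0 higher and 1 lower for immediate early genes.

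Markers of the epicardium and nerves gave a fall of Upk1b, a protein of mesothelium (-1.06 ± 0.17, adjusted p = 0.000333, not called in the joint fit), and a rise of the neurotrophic co-receptor Gfra3 (0.43 ± 0.06, adjusted p = 0.000149), of 15 measured. Gfra3 read 6.00, 5.91, 5.97, 6.05 and 6.23 on BPH arrays 1 to 5 and 5.73, 5.51, 5.63, 5.57 and 5.58 on BPN arrays 1 to 5. The BPH arrays were all higher. Alas2, the first enzyme of haem synthesis in red cell precursors, rose (0.68 ± 0.16, adjusted p = 0.0138) among 5 red blood cell markers, and was not called in the joint fit. The complement inhibitor Serping1 fell (-0.41 ± 0.07, adjusted p = 0.000737), 1 of 4 falls and 0 rises among 16 complement genes, beside C1qb, C1qc and the protease C1ra (-0.39 ± 0.11, lost without any 1 of 6 arrays, adjusted p up to 0.122). Kinase Sgk1 (-0.40 ± 0.09, adjusted p = 0.011) and the co-chaperone Fkbp4 (-0.27 ± 0.06, adjusted p = 0.0082), both tied to steroid receptors, fell among 20 glucocorticoid and fasting genes, and neither was called in the joint fit. Without BPH arrays 2, 4 and 5 the complement list gave 0 higher and 2 lower, the glucocorticoid list 1 higher and 2 lower and the red cell list 0 higher and 0 lower.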
